A study of Mus musculus with 6 samples.

Results

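The Eph/ephrin, Slit/Robo and netrin systems were examined in RNA-seq counts of E15.5 whole mouse brain as a list of 35 autosomal genes that encode their ligands and receptors. All RefSeq transcript IDs with a symbol on the list were kept. They came to 33 IDs of 31 genes among 23485 IDs in the tables, and 24 of the 33, each from a different gene, entered the test among 13374 IDs. An ID was tested when at least 1 sample held 10 counts of it. The remaining 9 IDs had 0 to 5 counts in each sample, and 4 listed genes, Epha7, Ephb2, Ephb6 and Robo2, had no ID and were not analysed here.

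The samples were 3 female and 3 male whole brains from wild-type C57BL/6 embryos, with the sex read from testicular cords in the gonads. Several embryos contributed RNA to each sample, so that a value averages over a pool, and p-values measure the spread between these pools. The labels name no litter, date or batch, and no comparison within batches could be made.

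Guidance systems steer growing axons and migrating neurons by contact or by gradients. Ephrins are membrane-bound ligands whose Eph receptor tyrosine kinases mostly repel the axons that meet them, with A ephrins held by a lipid anchor and B ephrins crossing the membrane. Slits are secreted and repel axons through Robo receptors, for example at the midline. Netrins are secreted and attract axons through Dcc and neogenin (Neo1), or repel them when an Unc5 receptor takes part.

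Totals ranged from 4908565 to 10294443 counts per sample, and the limit that a count of 0 allows (3 counts) was 0.291 to 0.611 CPM (counts scaled to a common library total), a limit that covers counting error only. Below, CPM values use library totals scaled by edgeR's TMM factors, and levels compared between genes are CPM per kilobase of transcript. Among tissue markers, 6 of 7 neuronal and 6 of 7 progenitor genes had 10 or more counts, while Elavl4 and Pax6 were below that or had no ID. RNA of muscle, skin and connective tissue was also present, with summed marker levels of 4380 to 6133 CPM for skeletal muscle, 957 to 2081 CPM for epidermis and 17516 to 25790 CPM for the collagen-rich meninges and fibroblast list. In such bulk tissue, fewer cells of a type and less RNA per cell cannot be told apart.

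How a guidance gene was counted went with the number of mRNAs that RefSeq lists for it. All 17 listed genes with 1 RefSeq mRNA had at least 100 counts in some sample, and the median of their highest counts was 980. Of the 18 genes with 2 or more mRNAs, 22.2% reached 100 counts and the median highest count was 4. The exceptions were Epha3, Efnb2, Efna3 and Epha10. The same held less steeply over all protein-coding genes, where 49.0% of 13170 genes with 1 mRNA and 14.2% of 7857 genes with 2 or more reached 100 counts. How reads shared by several transcripts were assigned is not stated, and its part in these low counts was not tested. A low count of Neo1, Slit2, Efna5, Ephb1, Ephb4 or the Unc5 receptors is therefore given below as a count and cannot be read as absence of the gene's RNA.

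**Figure D1:**
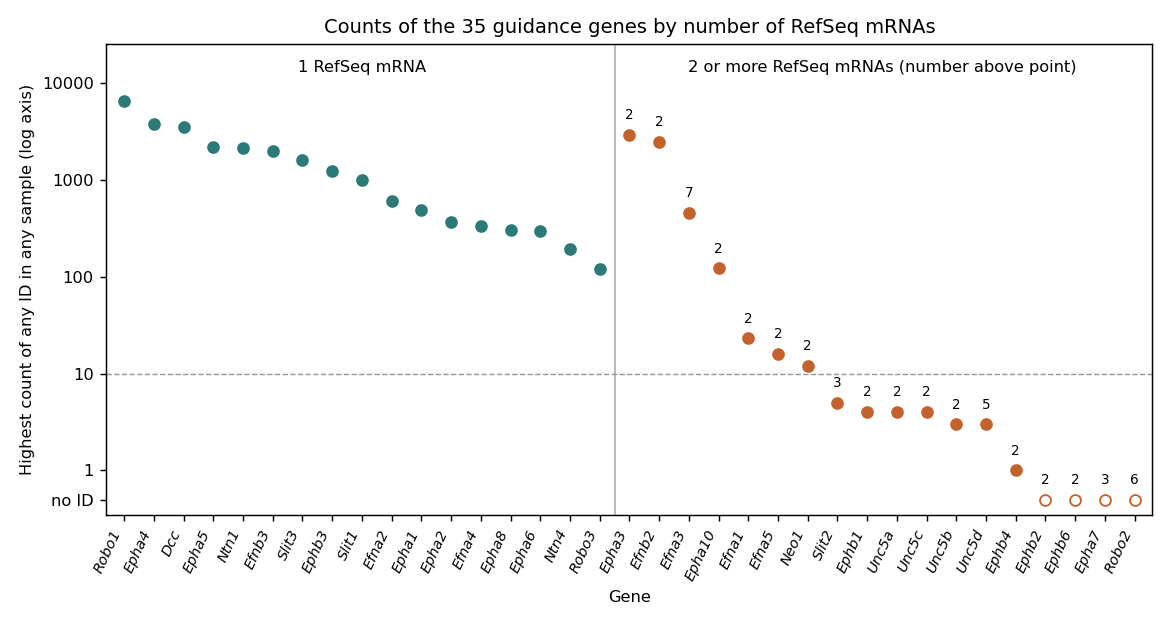
Highest count of any ID of each of the 35 genes in any of the 6 samples (log axis), with genes that have 1 RefSeq mRNA on the left and those with 2 or more on the right, the number of mRNAs above each point. Open circles are the 4 genes without an ID, and the dashed line is the minimum of 10 counts. All 17 genes on the left lie above 100 counts, while 7 of the 18 on the right lie above 10.

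No guidance ID differed between male and female brains at an adjusted p under 0.05 (edgeR quasi-likelihood F test, Benjamini-Hochberg over 13374 IDs), where 0.0299% of all tested IDs (4 IDs) did. Adjusted p-values of the 24 IDs ran from 0.341 to 0.981 with edgeR. At an unadjusted p under 0.05, 3 of the 24 (12.5%) passed, beside 11.5% of all tested IDs. Slit3 and Dcc were lower in males, and Efna3 was higher. In females, 4.82% of all tested IDs were higher at that threshold, and in males 6.68% were. The CPM of the sexes did not overlap for 5 of the 24 (20.8%), which were these 3 genes together with Robo1 and Epha2, beside 17.1% of all tested IDs. Both shares were close to the background of all IDs. DESeq2 also called 0 guidance IDs, beside 1.55% of the IDs it gave an adjusted p. With a factor for unwanted variation estimated from residuals (RUVr), DESeq2 called 2, Slit3 and Dcc, among 335 calls in all (3.85% of the IDs with an adjusted p).

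By direction, 11 guidance IDs were higher in males and 13 in females, with a median log2 fold change (male against female) of -0.02, beside -0.01 over all tested IDs. The 11 ligand IDs had a median of -0.07, with 4 higher in males. The 13 receptor IDs had a median of 0.03, with 7 higher in males. The plot of sex differences by gene shows that only the intervals of Slit3, Dcc and Efna3 leave out 0.

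**Figure D2:**
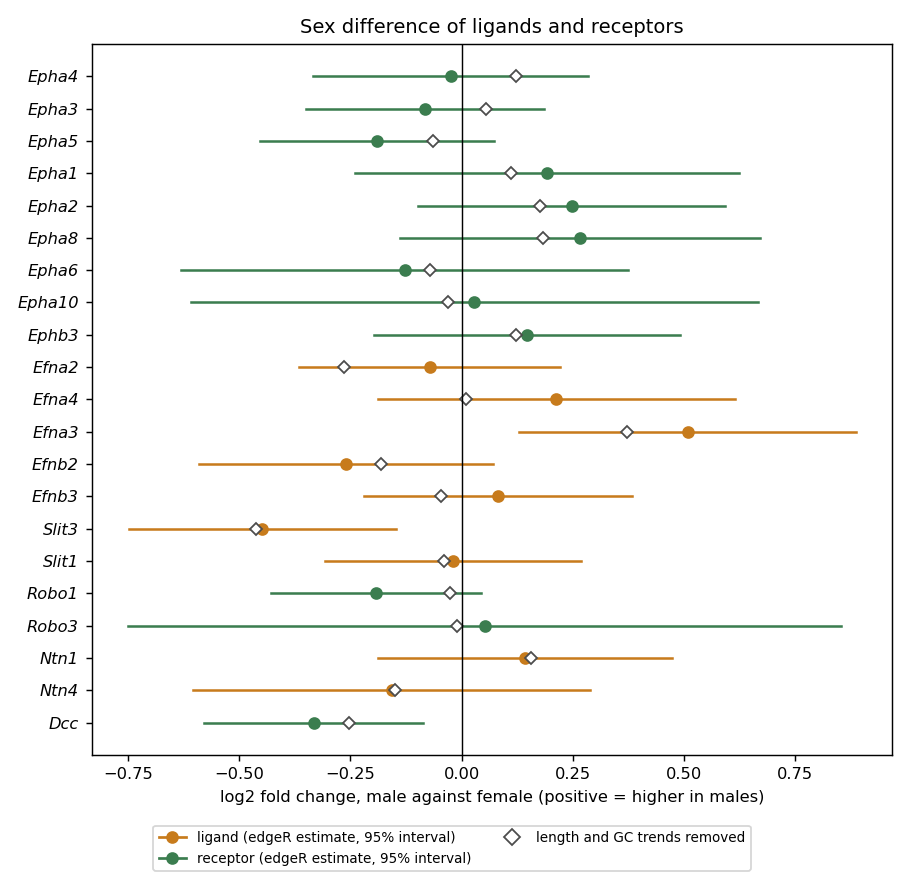
Log2 fold change of each guidance gene, male against female (x axis), with its 95% interval from edgeR (filled circles and lines, orange for ligands and green for receptors). Efna1, Efna5 and Neo1, which had under 25 counts in every sample, are left out. Open diamonds are the estimates after trends in transcript length and GC content were removed, and Slit3 (-0.45 and -0.46) is nearly the same in both, while Robo1 moves from -0.19 to -0.03.

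Among the EphA receptors, which bind A ephrins, Epha4 (NM_007936, chromosome 1) had the highest level, 60.2 CPM per kilobase, or 33.0% of the class sum over the measured IDs. Epha4 also binds B ephrins and acts in spinal and cortical axon tracts. Its CPM was 392.5, 383.7 and 376.6 in female samples 1 to 3 and 304.2, 457.5 and 372.0 in male samples 1 to 3. The male samples lay on both sides of the female ones, and the log2 fold change was -0.02 with a 95% interval of -0.33 to 0.28. Epha3 (47.6 CPM per kilobase) and Epha5 (41.7) followed. Epha4 was above Epha3 and Epha3 above Epha5 in 6 of 6 samples, although their ranges over samples overlapped. These 3 receptors were separated from the rest, since Epha5 was 3.85 times Epha1 with no overlap of their ranges.

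The remaining EphA receptors had mean levels of 10.8 (Epha1), 7.59 (Epha2), 6.51 (Epha8), 6.01 (Epha6) and 1.93 (Epha10) CPM per kilobase. Epha8 exceeded Epha6 in 3 of 6 samples and Epha2 exceeded Epha8 in 4 of 6, so the order of these neighbours was not resolved. A second ID of Epha10 had 0 to 4 counts and was not tested. Of this class only Epha2 (NM_010139, chromosome 4), a receptor also found widely in epithelia, had sexes without overlap. Its CPM was 27.7, 25.9 and 27.9 in females and 30.1, 30.7 and 36.1 in males. The male mean was 1.19 times the female mean, and the log2 fold change of 0.25 (SE 0.16) had an unadjusted p of 0.145 and an adjusted p of 0.556 with edgeR. For Epha1, Epha3, Epha5, Epha6, Epha8 and Epha10 the sexes overlapped, with log2 fold changes from -0.19 (Epha5) to 0.27 (Epha8, 0.14 without male sample 2). With length and GC trends removed, Epha5 was -0.07, and Epha1 moved from 0.19 to 0.11.

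The A ephrins were led by Efna2 (NM_007909, chromosome 10), a ligand used in the mapping of visual axons, at 25.8 CPM per kilobase (43.8% of the class sum). Its CPM was 52.7, 54.6 and 61.6 in females and 54.6, 54.9 and 51.4 in males. The sexes overlapped, with a log2 fold change of -0.07 (SE 0.14, adjusted p = 0.868 with edgeR). With length and GC trends removed the log2 fold change was -0.27 with an unadjusted p of 0.0495 (edgeR), and 4 guidance IDs then had an unadjusted p under 0.05, beside 9.37% of all tested IDs. Efna4 (17.5 CPM per kilobase) and Efna3 (14.3) came next, and Efna4 was above Efna3 in 6 of 6 samples with overlapping ranges. Efna4 had a log2 fold change of 0.21 (SE 0.19), and of 0.01 with length and GC trends removed. The mean of Efna3 was 12.7 times that of Efna1, which had 6 to 23 counts per sample, and its second ID had 0 or 1 counts.

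Efna3 (NM_010108, chromosome 3 at 89117821 to 89126887, NCBIM37) had the largest positive log2 fold change of the 24 IDs. Its CPM was 30.6, 23.3 and 29.7 in females and 46.8, 36.3 and 36.1 in males. Each male sample was above each female sample, and the male mean of 39.7 CPM (SD 6.12) was 1.43 times the female mean of 27.8 (SD 3.95). The log2 fold change was 0.51 (SE 0.18), with an unadjusted p of 0.0124 and an adjusted p of 0.344 (edgeR). Male sample 1 was the highest, and without it the log2 fold change was 0.37 with an unadjusted p of 0.0581 (edgeR). The summed choroid plexus markers were also higher in males without overlap (445.7 to 540.5 CPM in females, 560.2 to 734.5 in males, nearly all of it Ttr, with Folr1 and Kcne2 below 10 counts or without an ID). Of 6 tested neural progenitor genes, 5 were higher in males and 3 had an unadjusted p under 0.05 (edgeR), beside 11.5% of all tested IDs. Their sum overlapped (2517 to 2860 CPM in females, 2607 to 2987 in males). Hes5, a Notch target, was 11.5, 13.6 and 17.02 CPM in females and 24.2, 27.6 and 20.8 in males. Nes was 540.8, 485.8 and 573.2 CPM in females and 512.1, 574.6 and 474.0 in males. Of 6 tested neuronal IDs, 4 were higher in males and 2 had an unadjusted p under 0.05 (edgeR). Of 4 tested epidermal IDs, 4 were higher in males and 1 had an unadjusted p under 0.05 (edgeR). The part of these markers in the Efna3 values was not tested. Efna3 has 7 RefSeq mRNAs, of which 1 was in the tables. Efna5, whose protein patterns retinal and thalamic projections, had 7, 0 and 16 counts in females and 0, 0 and 7 in males, so that 3 samples were at 0 and its fitted fold change is not interpreted.

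The promoters of Slit3, Robo1, Efna3 and Epha2, 4 of the 5 genes whose CPM did not overlap between the sexes (that of Dcc was not examined), are shown so that the sequence context can be read beside their values. Each is the 250 bases before the first listed RefSeq start (GRCm38.p6, a later build than that of the counts), 5′ to 3′ on the gene's strand, with CG dinucleotides in capitals.
Slit3: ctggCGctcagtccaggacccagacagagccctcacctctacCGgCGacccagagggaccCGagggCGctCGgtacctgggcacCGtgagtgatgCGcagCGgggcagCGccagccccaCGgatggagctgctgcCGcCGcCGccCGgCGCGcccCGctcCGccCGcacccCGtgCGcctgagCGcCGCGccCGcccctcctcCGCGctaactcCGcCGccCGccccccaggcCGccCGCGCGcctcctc
Robo1: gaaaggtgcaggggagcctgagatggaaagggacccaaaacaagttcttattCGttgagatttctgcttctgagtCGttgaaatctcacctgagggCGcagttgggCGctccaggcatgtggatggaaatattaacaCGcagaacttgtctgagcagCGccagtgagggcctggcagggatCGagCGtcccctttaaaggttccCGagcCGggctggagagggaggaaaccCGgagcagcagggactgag
Efna3: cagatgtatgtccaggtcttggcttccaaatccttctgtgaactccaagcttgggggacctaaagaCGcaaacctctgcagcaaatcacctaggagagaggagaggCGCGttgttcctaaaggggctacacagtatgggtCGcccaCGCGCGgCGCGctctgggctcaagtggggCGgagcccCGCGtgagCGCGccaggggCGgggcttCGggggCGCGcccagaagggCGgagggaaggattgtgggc
Epha2: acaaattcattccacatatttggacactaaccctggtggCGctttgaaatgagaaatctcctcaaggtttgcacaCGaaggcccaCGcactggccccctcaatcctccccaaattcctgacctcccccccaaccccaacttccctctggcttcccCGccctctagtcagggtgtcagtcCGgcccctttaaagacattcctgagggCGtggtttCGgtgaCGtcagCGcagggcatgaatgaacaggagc
They lie at chr11:35121206-35121455 on the plus strand (Slit3), chr16:72662899-72663148 on the plus strand (Robo1), chr3:89322940-89323189 on the minus strand (Efna3) and chr4:141300971-141301220 on the plus strand (Epha2). Slit3 held 35 CG dinucleotides, a number that 2.97% of 32851 promoter windows of that length matched or passed. Efna3 held 19 (19.7% of windows) before this start and 31 (5.19%) before a second listed start, which is not printed. Robo1 held 11 (35.6%) and Epha2 9 (40.3%), against a median of 6. The letters TATAAA, searched on both strands, were in none of the 4 windows and in 12.4% of all windows. These matches describe the sequences and were not related to the sex differences.

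Both autosomal B ephrins were among the higher ligands, and the X-linked Efnb1, which is not on the list of autosomal genes, had 47.3 CPM per kilobase. Efnb2 (53.7 CPM per kilobase), needed for blood vessel and axon patterning, and Efnb3 (52.1), a midline ligand of the corticospinal tract, were not separated in level, with Efnb2 the higher in 3 of 6 samples. Efnb2 (NM_010111, chromosome 8) had 254.1, 270.1 and 236.1 CPM in females and 252.4, 161.7 and 219.6 in males. Male samples 2 and 3 were below all females and male sample 1 was not. The log2 fold change was -0.26 (SE 0.15, adjusted p = 0.521 with edgeR), and it ranged from -0.41 without male sample 1 (unadjusted p = 0.0114) to -0.0944 without male sample 2. Efnb3 had a log2 fold change of 0.08.

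Of the EphB receptors, only Ephb3 (NM_010143, chromosome 16), a receptor of commissural axons, had more than 4 counts in any sample, at 23.4 CPM per kilobase. Its CPM was 111.6, 78.5 and 125.9 in females and 113.6, 119.6 and 117.9 in males. Female sample 2 was the lowest and the sexes overlapped, with a log2 fold change of 0.15 (SE 0.16, adjusted p = 0.745 with edgeR). Ephb1 had 0 to 4 counts and Ephb4 0 or 1.

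Slit3 (NM_011412, chromosome 11 at 34934726 to 35522009, NCBIM37) had the lowest unadjusted p-value of the guidance IDs. Its CPM was 183.4, 156.9 and 162.4 in females and 123.8, 103.1 and 140.9 in males. All male samples were below all female samples, and the female mean of 167.5 CPM (SD 14.0) was 1.37 times the male mean of 122.6 (SD 18.9). The log2 fold change was -0.45 (SE 0.14), with an unadjusted p of 0.0066 and an adjusted p of 0.341 (edgeR). Its adjusted p was 0.0849 with DESeq2 and 0.0483 with DESeq2 and 1 RUVr factor, and the estimate stayed at -0.46 with length and GC trends removed.

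Slit3 is also made outside the nervous system, in connective tissue and vessels, so marker levels are given beside it. The summed level of 6 cartilage genes was 350.9 to 482.9 CPM in females and 149.0 to 322.3 in males, without overlap, with Acan below 10 counts. Hapln1, the most abundant of them, was 284.0, 245.0 and 209.2 CPM in females and 89.6, 84.1 and 171.2 in males, without overlap. The sexes overlapped in Matn1 (103.3, 49.8 and 84.5 CPM in females, 26.3, 37.1 and 75.3 in males), Col9a1, Col2a1 and Comp. The endothelial sum was 618.7 to 658.5 CPM in females and 522.0 to 595.9 in males, also without overlap, and it was carried by Cdh5 and Kdr, while Cldn5 ran the other way (45.1, 41.9 and 59.7 CPM in females, 67.9, 73.9 and 56.9 in males). Pecam1, Tek and Esam were below 10 counts or had no ID. The sexes overlapped in the meninges and fibroblast sum (18936 to 23326 CPM in females, 17516 to 25790 in males) and in the pericyte sum (307.3 to 335.2 and 299.8 to 362.3). The part of these tissues in the Slit3 and Efnb2 values was not tested.

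Slit3 made up 61.3% of the Slit sum, at 27.8 CPM per kilobase, and Slit1, a mainly neural Slit, was 17.5. Slit3 was above Slit1 in 6 of 6 samples, although the ranges overlapped. Slit1 had a log2 fold change of -0.02 with a 95% interval of -0.31 to 0.27. Slit2 had 0 to 5 counts.

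Robo1 (NM_019413, chromosome 16 at 72663394 to 73046340, NCBIM37), a Slit receptor of commissural and cortical neurons, had the highest level of all the guidance IDs, 81.3 CPM per kilobase, and 97.1% of the Robo sum. Its CPM was 650.0, 658.8 and 659.1 in females and 554.0, 571.7 and 595.8 in males. The female samples lay close together and above every male sample, and the female mean was 1.14 times the male mean. The log2 fold change was -0.19 (SE 0.11), with an unadjusted p of 0.101 and an adjusted p of 0.506 (edgeR), and it was -0.03 once length and GC trends were removed. Robo3, which lowers Slit responsiveness before axons cross the midline, had 2.43 CPM per kilobase and a wide spread, from 5.58 CPM in male sample 1 to 18.3 in male sample 2.

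Dcc (NM_007831, chromosome 18 at 71418392 to 72510723, NCBIM37), the receptor for attraction to netrins, had 65.1 CPM per kilobase. Its CPM was 388.9, 390.5 and 356.8 in females and 280.7, 305.0 and 316.4 in males. All male samples were below all female samples, and the female mean of 378.8 CPM (SD 19.0) was 1.26 times the male mean of 300.7 (SD 18.2). The log2 fold change was -0.33 (SE 0.11), with an unadjusted p of 0.0120 and an adjusted p of 0.344 (edgeR). The adjusted p was 0.108 with DESeq2 and 0.0475 with DESeq2 and 1 RUVr factor. With length and GC trends removed the log2 fold change was -0.25 with an unadjusted p of 0.0211 (edgeR). The summed neuronal markers overlapped between the sexes (2890 to 3385 CPM in females, 3224 to 4105 in males). Their part in the Dcc and Robo1 values was not tested.

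The other netrin receptors had few counts. Neo1 had 1, 3 and 5 counts in females and 0, 3 and 12 in males, and the Unc5 receptors had 0 to 4. Of the netrins, Ntn1 (NM_008744, chromosome 11), a midline attractant, held 86.5% of the sum of Ntn1 and Ntn4 at 31.7 CPM per kilobase, or 81.0% with Ntn3, which was measured but is not on the list. Its CPM was 171.1, 143.5 and 216.1 in females and 217.0, 193.9 and 176.1 in males. The sexes overlapped, with a log2 fold change of 0.14 (SE 0.15, adjusted p = 0.741 with edgeR), and values of 0.0140 without female sample 2 and 0.33 without female sample 3. Ntn4, a netrin of basement membranes, was 4.93 CPM per kilobase with a log2 fold change of -0.16.

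**Figure D3:**
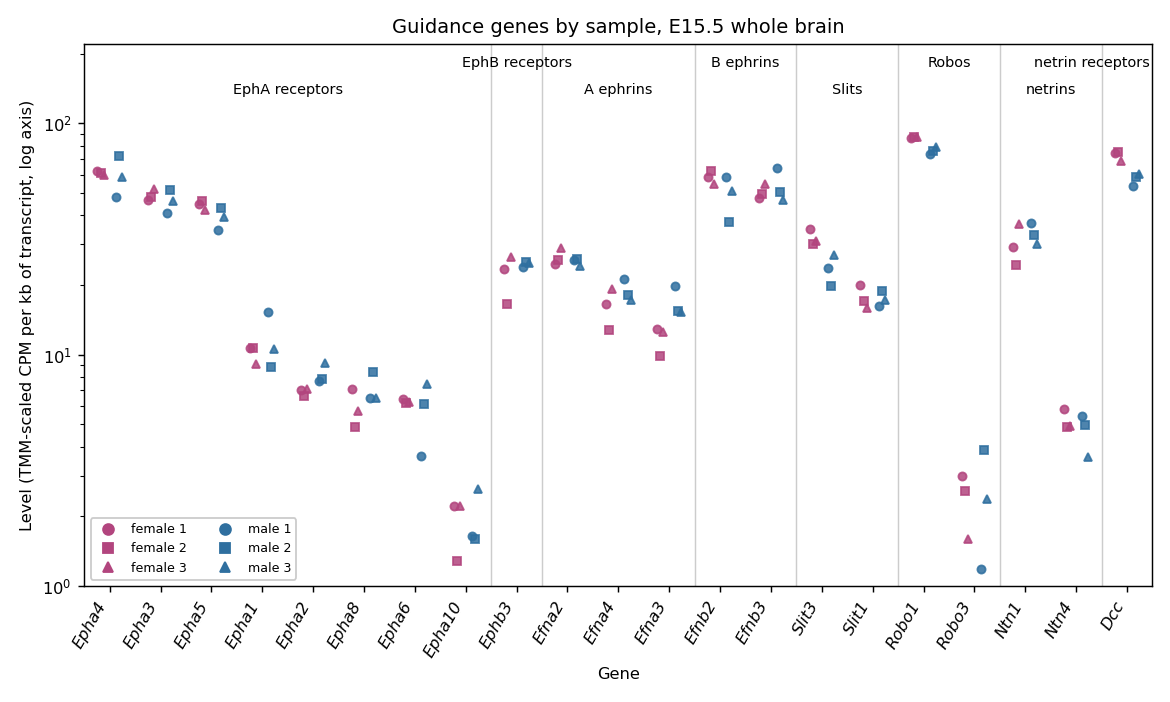
Level of 21 guidance genes in each of the 6 samples (y axis, TMM-scaled CPM per kilobase of transcript, log scale), grouped by class, with females in pink and males in blue and the marker shape giving the replicate number. Robo1, Dcc and Epha4 have the highest means, and the males of Slit3, Robo1 and Dcc lie below the females.

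Ligands were set against receptors within each of the 4 systems as the log2 ratio of the summed ligand level to the summed receptor level, with no test, since sums over chosen members cover the measured IDs of the listed genes only. A ephrins were below EphA receptors in every sample, with ratios of -1.72, -1.91 and -1.58 in females and -1.22, -1.73 and -1.64 in males. B ephrins were above EphB receptors, with ratios of 2.17, 2.74 and 2.04 in females and 2.35, 1.80 and 1.97 in males, where the receptor sum was nearly all Ephb3. The ligand sum leaves out the X-linked Efnb1, and with it, an alternative added after the data were seen, the mean difference between the sexes was -0.11 in place of -0.28, still with overlap. Slits were below Robos, at -0.69, -0.93 and -0.92 in females and -0.90, -1.05 and -0.87 in males. Little or nothing is added to the sums by Epha7, Efna5, Ephb1, Ephb2, Ephb4, Ephb6, Slit2, Robo2, Neo1 and the Unc5 receptors. These had few counts or no ID, so the order of ligands against receptors holds for the counted IDs only.

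Netrins were below their receptors, at -1.10, -1.36 and -0.72 in females and -0.34, -0.62 and -0.86 in males. The mean ratio was 0.45 higher in males, but the sexes overlapped, as they did in the Eph A (0.21), Eph B (-0.28) and Slit (-0.09) systems. In the netrin system the receptor sum, nearly all Dcc, was 74.8, 75.3 and 68.5 CPM per kilobase in females and 53.8, 58.6 and 60.9 in males. In the Slit system both sums were lower in males, with ligand sums of 46.9 to 55.1 in females and 38.5 to 44.3 in males, and receptor sums of 88.7 to 89.7 and 74.4 to 81.1 CPM per kilobase. The ratio therefore moved little while its parts did not overlap between the sexes. Slit3 carried the ligand difference, since Slit1 had a log2 fold change of -0.02 and Slit2 had 0 to 5 counts. Robo1 made up 97.1% of the receptor sum, and its log2 fold change was -0.03 with length and GC trends removed. Robo2 had no ID. Slit3 and Robo1 are the genes without overlap already given, beside 17.1% of all tested IDs.

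**Figure D4:**
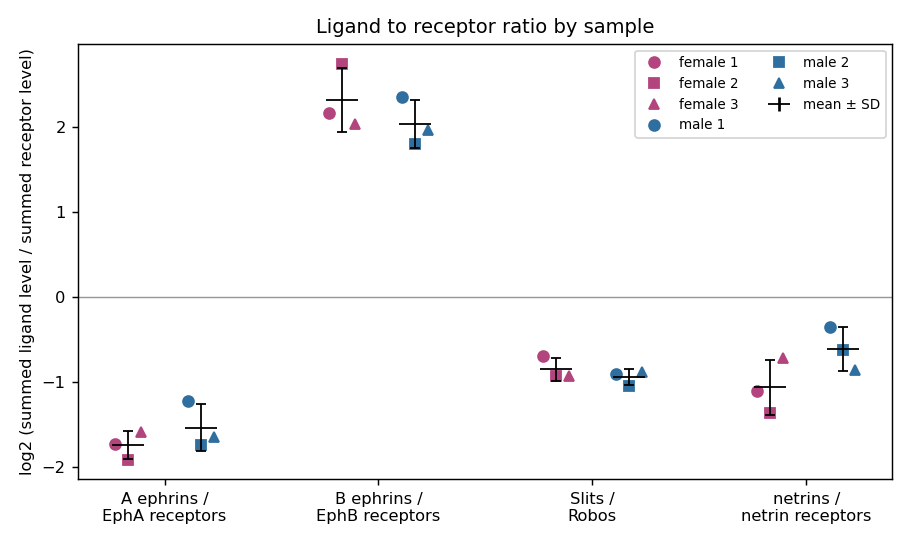
Log2 ratio of summed ligand to summed receptor level (y axis) in each female and male sample for the 4 systems. For the counted IDs, only the Eph B system lies above 0, and in no system are the 3 female samples separated from the 3 male samples.

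Male sample 1 was the highest or lowest of the 6 in 13 of 24 IDs (highest in 5, lowest in 8), and female sample 2 in 11. Over all tested IDs, male sample 1 was highest in 25.4% and lowest in 25.3%, and female sample 2 in 21.1% and 22.8%. Across IDs, log2 fold changes went with transcript length (Spearman correlation -0.25 over 12746 IDs) and GC content (0.28), and across the 24 guidance IDs the correlations were -0.20 and 0.51. These are descriptions across genes that share the same libraries. The guidance transcripts were long, with a median of 4686.5 nucleotides against 2872 for all tested IDs with a length.

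A further list of 62 genes of these systems (other ligands and co-receptors, and cytoplasmic partners) had 50 tested IDs of 45 genes. None was called at an adjusted p under 0.05 with edgeR, 6 (12%) had an unadjusted p under 0.05, beside 11.5% of all tested IDs, and the median log2 fold change was -0.09. DESeq2 called 0 of them, and 2 (Rock2 and Flrt2) with 1 RUVr factor, where 3.85% of all IDs with an adjusted p were called. Lower in males were Srgap3, a GTPase-activating partner of Robo (460.8 against 354.3 CPM, log2 fold change -0.38), the cytoskeletal kinase Rock2 (-0.38), and the membrane proteins Flrt2 (-0.35) and Flrt1 (-0.34). Higher in males was the X-linked B ephrin Efnb1, at 135.8, 106.5 and 152.6 CPM in females and 175.3, 189.5 and 164.5 in males (log2 fold change 0.42, unadjusted p = 0.0119, adjusted p = 0.344 with edgeR). Rhoa was also higher in males, at a low level of 2.91 against 5.74 CPM. The CPM of the sexes did not overlap for 10 of the 50 IDs (20%), 7 of them lower in males, beside 17.1% of all tested IDs, of which 1117 of 2281 were lower in males.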

How the data were processed

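RNA-seq of 3 female and 3 male pools of E15.5 whole brain was analysed. Per the labels and the study's methods, stranded total RNA libraries were sequenced from both ends, and reads were trimmed (Trimmomatic 0.32), aligned to mm9 (TopHat2 2.1.1), assembled (Cufflinks 2.2.1) and counted (featureCounts 1.5.1). The values deposited by the authors are raw counts per RefSeq transcript ID, 1 table per sample. The settings for strand and for reads shared by transcripts are not given in the sources used here. Overlapping genes and genes with several transcripts are therefore uncertain.

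The comparison of male with female samples used edgeR 4.0.16 (quasi-likelihood F test, TMM factors) in R 4.3.3 on all IDs that reached 10 counts in some sample. The 95% intervals use 13.0 degrees of freedom, and SE values were computed from log2 fold changes and F statistics. The study used DESeq2 with RUVr, and DESeq2 1.42.0, alone or with 1 RUVr factor, was run as an alternative beside other settings of edgeR. Length and GC trends were removed by loess (span 0.3). Symbols, numbers of mRNAs and promoters (GRCm38.p6) are from RefSeq, which named 99.4% of the IDs. Positions and lengths (NCBIM37, the build of the counts) are from GENCODE, with the longest transcript of a gene as its length. Python 3.11.15, pandas 2.3.3 and matplotlib 3.10.9 were used, and the fits were tested on simulated counts. Replicates of a sex differed by more than sampling noise.

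The members, the further list and the marker lists were chosen with earlier results of these data known. Values in each sample are given for members with an unadjusted p under 0.05, members whose sexes do not overlap, and the member with the highest level in each of the 8 classes. The others are given by level or counts, with a range or log2 fold change for some. Protein sequences were not used here.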

Additional observations from a re-analysis of the deposited data

How the results depend on the processing

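The count of guidance IDs called (0) held with RLE factors, no filter, DESeq2, the replicate block, length and GC trends removed, counts summed per gene, and each sample left out, and became 2 with DESeq2 and 1 RUVr factor, where 5 had an unadjusted p under 0.05 in place of 3, beside 14.2% of all tested IDs in that fit. Over all tested IDs, the 4 calls became 276 with no filter on low counts, 95 with DESeq2, 335 with 1 RUVr factor, and 3 to 51 with a sample left out (51 when female sample 3 was dropped, and 12, 8 and 7 when male samples 1, 2 and 3 were). The causes were not tested. With the replicate block, 4 IDs were called in all and 0 guidance IDs, the same counts as without it. Same-numbered samples had correlations of -0.32, -0.04 and -0.27, so the numbers do not pair them, and no sample correlated best with its own number.

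The median log2 fold change of the guidance IDs ranged from -0.0749 to 0.0328 with a sample left out, being 0.0328 without female sample 1. Differences of the ligand to receptor ratios kept their direction in the alternatives run, but with a sample left out they ranged from 0.0492 (without male sample 1) to 0.31 for Eph A, -0.44 (without male sample 1) to -0.0668 (without female sample 2) for Eph B, -0.13 to -0.0164 (without female sample 1) for Slit and 0.30 to 0.62 for netrin. Adding ligands outside the list, chosen after seeing the data, gave -0.11 for Eph B (Efnb1) and 0.44 for netrin (Ntn3). Of 144 log2 fold changes of single members under the other alternatives, 133 kept their direction without passing the threshold, 2 passed it (Slit3 and Dcc) and 9 reversed. DESeq2 gave no adjusted p for 9 of the 144, whose side of the threshold was thus not determined. The reversed values were, with length and GC trends removed, Epha4 0.12, Epha3 0.0551, Epha10 -0.0296, Efnb3 -0.0462 and Robo3 -0.00951, with the replicate block, Efna1 0.11 and Robo3 -0.0309, with no filter, Slit1 0.00307, and with 1 RUVr factor, Neo1 -0.78. With a sample left out, 17 of 144 reversed, and the ranges were -0.18 to 0.11 for Epha4, -0.0598 to 0.35 for Epha1, -0.36 to 0.12 for Epha6, -0.23 to 0.16 for Epha10, -0.0221 to 0.31 for Ephb3, -0.12 to 0.0141 for Efna2, -0.47 to 0.85 for Efna1, -0.0633 to 0.19 for Efnb3, -0.0799 to 0.0788 for Slit1, -0.40 to 0.40 for Robo3, -0.28 to 0.0134 for Ntn4 and -0.99 to 0.99 for Neo1. Members that kept their direction but moved by over 1.5 times included Efna4 (0.0775 to 0.37), Epha3 (-0.16 to -0.0035), Epha5 (-0.26 to -0.11), Epha8 (0.14 to 0.42) and Ntn1 (0.0140 to 0.33). The directions of the members that reversed are therefore not settled, and the floor of 0.291 to 0.611 CPM limits what can be said of the 9 untested IDs.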
